A study of Mus musculus with 6 samples.

Results

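Ribosome biogenesis genes encode the nucleolar proteins, ribosomal RNA (rRNA) processing factors and RNA polymerase I components with which a cell builds new ribosomes. The 37 genes described here were taken by symbol from a list of such genes. The rule uses no measured value, but the list was drawn up with earlier results of these data known, and all 37 were found among the 51912 genes listed in the count files. They were measured by RNA-seq in cells sorted from the aorta-gonad-mesonephros (AGM), the embryonic region where definitive blood stem cells arise, of MacGreen mouse embryos at E10.5. All embryos carried the Csf1r-EGFP transgene, and all sorted cells were GFP positive. One group was GFP+CD206- (CD206neg) and the other GFP+CD206+ (CD206pos), where CD206 is the mannose receptor encoded by Mrc1. Each group had 3 libraries, and each library pooled 3 to 5 AGM, digested for 45 min at 37 °C. The series design names 3 litters, and the libraries of both groups that carry the same AGM number were read as 1 litter, which no label states outright. The Csf1r promoter is active in macrophages and also in some of their precursors, so that GFP alone does not define a macrophage.

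Ribosomes are assembled in the nucleolus. RNA polymerase I transcribes a long precursor rRNA, small nucleolar ribonucleoproteins (snoRNPs) guide its methylation and pseudouridylation, and large sets of assembly factors cut, fold and package it into the small and the large subunit. The pathway is among the most costly of a growing cell, and its output is known to follow growth and the demand for protein synthesis, with the MYC family as a main transcriptional regulator.

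The libraries held 16730846 to 18214283 reads in genes, so that 3 reads stand for 0.165 to 0.179 CPM (read counts scaled to a common library size), and every member lay far above that floor. Values are CPM scaled by TMM, a library scaling that assumes most genes are level, and log2 fold changes are CD206pos minus CD206neg. The sorted antigen followed the labels, with Mrc1 at 51.6 to 118.5 CPM in CD206neg and 1458 to 1792 CPM in CD206pos. Of 12668 genes tested with edgeR's quasi-likelihood test, 617 (4.87%) passed an adjusted p of 0.05, with 376 higher and 241 lower in CD206pos. With library totals in place of TMM the split was 273 higher and 284 lower. Since these are bulk samples, fewer cells with a transcript and less of it per cell cannot be told apart.

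Ribosome biogenesis genes were lower in CD206pos as a group, by a modest amount. All 37 members were tested, and 35 of them had a fitted log2 fold change below 0, where 50.3% of all genes tested did. The median of the members was -0.53, against 0.00 over all genes tested, and the fitted values ran from -0.97 (Rrp9) to 0.03 (Ddx10). In 30 of 37 members CD206pos was below CD206neg in each of the 3 litters, a pattern shown by 22.0% of all genes tested.

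Few single genes passed the test. The 4 that fell in CD206pos were Rrp9, Rrp12, Dkc1 and Nop56, and none rose, so that 10.8% of the members were called lower beside 1.90% of all genes tested. At an unadjusted p under 0.05 there were 20 members, all lower, where 8.05% of all genes were lower at that level. The 3 CD206pos libraries all lay below the 3 CD206neg libraries for 18 members (48.6%), against 11.8% of all genes tested, and no member had the opposite arrangement. With the litter as a block edgeR called 13 members lower (2.11% of all genes), and DESeq2 called 11 (4.34%). In limma-voom, run here and throughout with sample quality weights, 8 were called lower (2.06%), and none of these fits called a member higher.

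**Figure D1:**
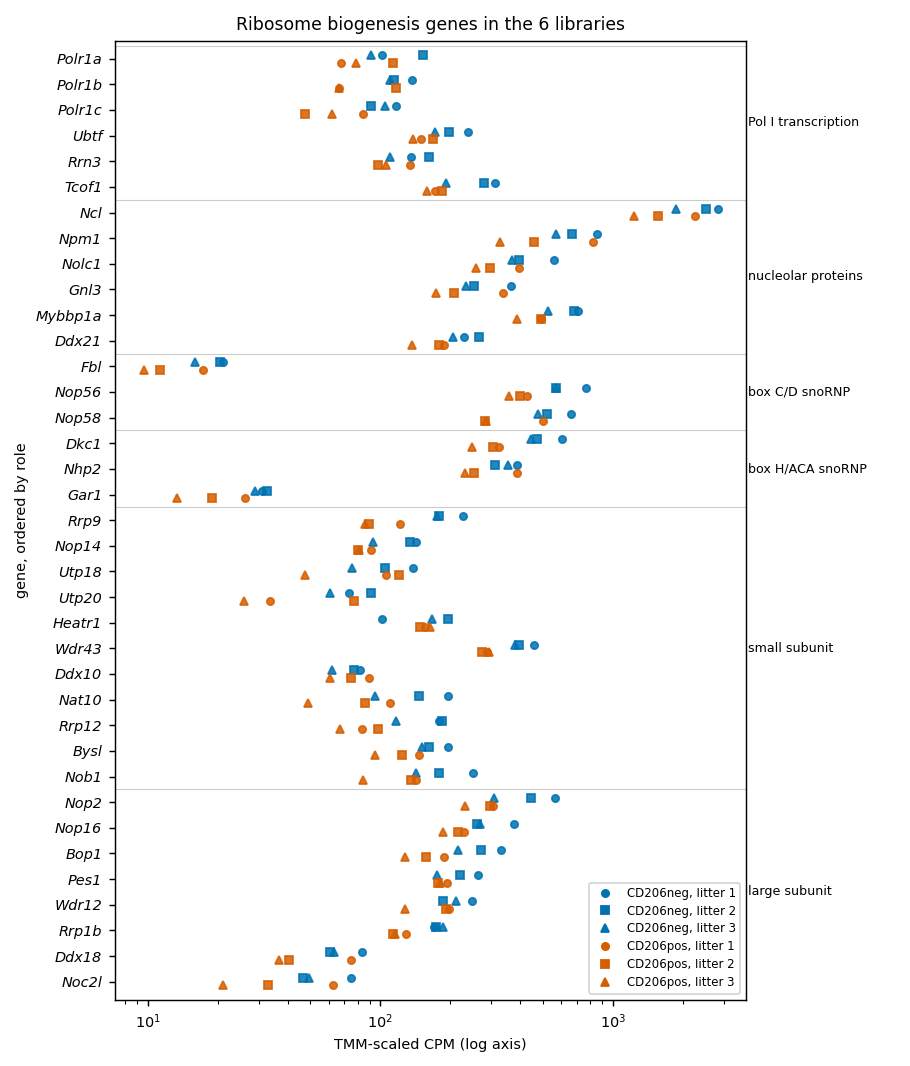
TMM-scaled CPM of each of the 37 genes (horizontal log axis) in the 3 CD206neg (blue) and 3 CD206pos (orange) libraries, with the litter given by the marker and genes ordered by role. For 18 genes, such as Rrp9 and Dkc1, all orange points lie to the left of all blue points, and for Heatr1 and Ddx10 the groups overlap.

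Rrp9, a protein of the snoRNP that directs the first cuts of the precursor rRNA, showed the lowest fitted log2 fold change of the 37. The gene (ENSMUSG00000041506.15, chr9:106475963-106485424, plus strand, GRCm38) measured 227, 179 and 176 CPM among CD206neg cells, given here and throughout in the order of litters 1, 2 and 3, and 121, 89.2 and 85.8 CPM among CD206pos cells. The groups did not overlap, and the log2 fold change was -0.97 ± 0.19 (SE, adjusted p = 0.025). Within litters the log2 differences were close to each other, at -0.906, -1.004 and -1.032.

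Rrp12, a factor in the maturation and export of pre-ribosomal particles (ENSMUSG00000035049.3, chr19:41862852-41896153, minus), was at 179, 184 and 116 CPM in CD206neg and at 83.2, 97.3 and 66.8 CPM in CD206pos. This was a 1.94-fold lower mean, with a log2 fold change of -0.95 ± 0.22 (adjusted p = 0.049). Dkc1 encodes dyskerin, the pseudouridine synthase of box H/ACA snoRNPs and a component of telomerase (ENSMUSG00000031403.14, chrX:75095854-75109777, plus). It was at 604, 471 and 444 CPM in CD206neg and 324, 305 and 249 CPM in CD206pos (log2 fold change -0.79 ± 0.17, adjusted p = 0.034). Nop56, a core protein of the box C/D snoRNPs that methylate rRNA (ENSMUSG00000027405.16, chr2:130274430-130279313, plus), was at 768, 570 and 569 CPM in CD206neg and 425, 398 and 357 CPM in CD206pos (log2 fold change -0.69 ± 0.16, adjusted p = 0.045). In each of these genes the lowest CD206neg library stood above the highest CD206pos library, by a wide margin for Nop56 and Dkc1 and a narrower one for Rrp12.

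All 4 genes stayed lower in CD206pos in every fit that left out a library or a litter, and most of these fits lost the call. The Nop56 call was lost without any one of the 6 libraries and without any one litter (adjusted p between 0.062 and 0.31). The Dkc1 call held only without CD206pos replicate 1 (adjusted p = 0.046), the Rrp12 call only without CD206neg replicate 3 (adjusted p = 0.036), and the Rrp9 call only without CD206pos replicate 1 or litter 1 (adjusted p = 0.016 and 0.031). In the other leave-out fits the adjusted p was between 0.055 and 0.29 for Dkc1, 0.075 and 0.30 for Rrp12, and 0.055 and 0.27 for Rrp9. With the litter as a block their adjusted p values were 0.0079 (Rrp9), 0.014 (Rrp12), 0.011 (Dkc1) and 0.019 (Nop56).

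**Figure D2:**
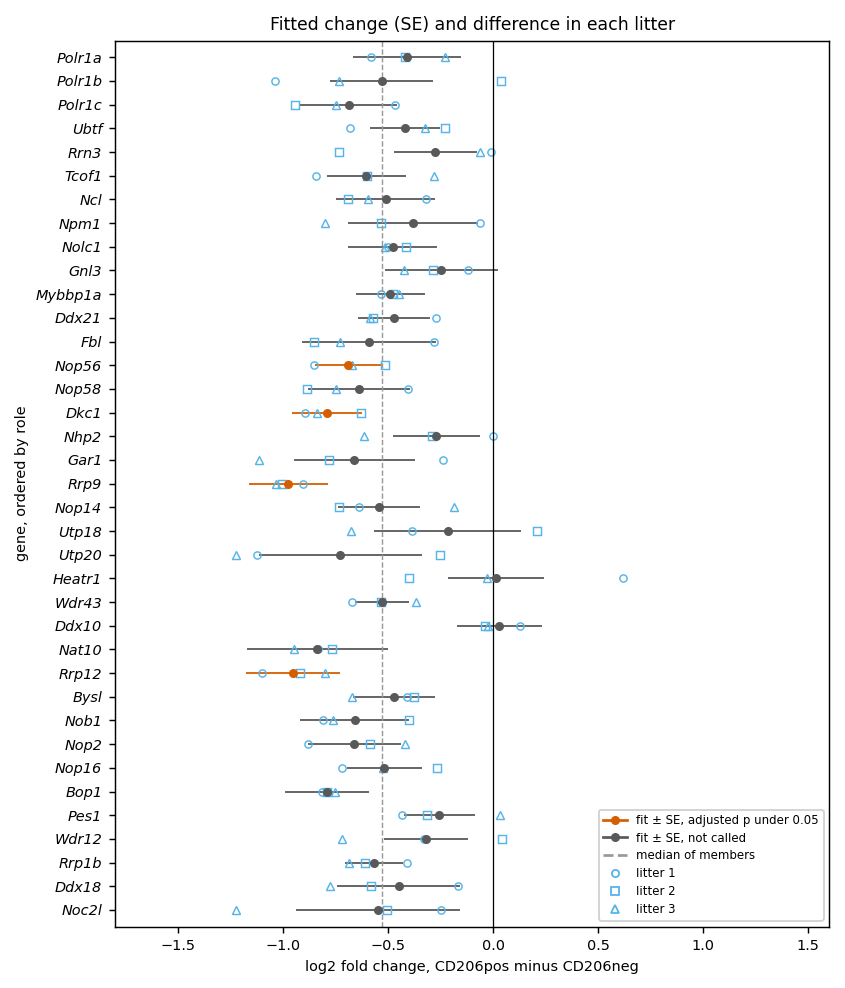
Fitted log2 fold change of each gene with its standard error (filled points and bars; orange where the adjusted p is under 0.05) and the log2 difference within each litter (open markers). Nearly all filled points lie left of 0, around the dashed median of -0.53, and the 4 orange points belong to Nop56, Dkc1, Rrp9 and Rrp12.

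Promoter letters were read because the members moved together and because MYC with its partner MAX binds the E-box CACGTG. RefSeq windows (GRCm38.p6) of 300 bases, from 250 before to 50 after a transcript start, were found for 32 of the 37 genes. The E-box was in the windows of 7 of these 32 genes (21.9%), beside 19.2% of 99 other ribosome assembly genes, 12.0% of the 9512 tested genes with a window and 8.1% of all 27025 genes with one. An ETS-type motif, CCGGAAG on either strand, was in the windows of 10 genes (31.2%), beside 47.5% of the other assembly genes and 21.2% of tested genes, and the palindromic NRF1 motif was in none, beside 2.4%. No test was made of these shares, and a match describes letters and not a bound site. The members with an E-box were Nop2, Utp18, Rrn3, Pes1, Utp20, Mybbp1a and Wdr43, and neither Nop56, Dkc1 nor Rrp9 had one in the window. Rrp12, also called, had no window, and the window of Rrp9 (chr9:106477059-106477358) lay inside the gene as counted, not at its first base. In Nop2, Utp18 and Rrn3 the E-box lay before the start, 60 bases before it in Nop2, 20 in Utp18, and 215 and 48 in Rrn3. These 3 stretches are shown because they hold the motif, with the E-box in capitals, 5′ to 3′ on the gene's strand (Nop2 chr6:125131793-125131858, plus; Utp18 chr11:93885767-93885816, minus; Rrn3 chr16:13780454-13780686, plus). Stretches of 120 bases before the start of Nop56 (chr2:130274292-130274411, plus) and Dkc1 (chrX:75095734-75095853, plus) are shown as those of called genes with no CACGTG, the only E-box form searched.
Nop2: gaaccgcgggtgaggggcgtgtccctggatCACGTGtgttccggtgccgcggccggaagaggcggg
Utp18: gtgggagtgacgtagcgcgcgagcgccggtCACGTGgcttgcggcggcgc
Rrn3: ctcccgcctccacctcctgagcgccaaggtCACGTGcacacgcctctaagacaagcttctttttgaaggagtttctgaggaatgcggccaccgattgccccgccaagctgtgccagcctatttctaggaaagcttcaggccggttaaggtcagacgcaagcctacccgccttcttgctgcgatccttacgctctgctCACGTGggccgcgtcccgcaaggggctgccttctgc
Nop56: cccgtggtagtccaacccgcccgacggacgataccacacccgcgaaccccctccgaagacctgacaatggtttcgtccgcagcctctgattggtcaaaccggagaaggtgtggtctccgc
Dkc1: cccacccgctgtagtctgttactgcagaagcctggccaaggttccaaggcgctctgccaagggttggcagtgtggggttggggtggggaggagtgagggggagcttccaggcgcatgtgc

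Genes of RNA polymerase I transcription were lower in the fit in 6 of 6 cases, with a median log2 fold change of -0.48. None was called by edgeR, and DESeq2 called 2, limma-voom 0 and the litter block 0, with 3 at an unadjusted p under 0.05. For this and the other role groups, the counts stand beside the shares of all genes tested that were lower. These shares were 1.90% with edgeR (8.05% at an unadjusted p under 0.05), 4.34% with DESeq2, 2.06% with limma-voom and 2.11% with the litter block. Polr1c, a subunit shared by RNA polymerases I and III, was at 117, 91.3 and 105 CPM in CD206neg and 84.4, 47.5 and 62.2 CPM in CD206pos (log2 fold change -0.69 ± 0.23, adjusted p = 0.16, and 0.046 with DESeq2). Tcof1, the treacle protein that couples polymerase I to rRNA processing, was at 310, 280 and 192 CPM and at 172, 184 and 158 CPM (log2 fold change -0.60 ± 0.19, adjusted p = 0.13, and 0.029 with DESeq2). In both genes all CD206pos libraries lay below all CD206neg libraries, as also for Ubtf, the upstream binding factor that opens rRNA genes, at 203 ± 33.8 (SD) and 152 ± 15.2 CPM.

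The large subunits of the enzyme and its recruiting factor overlapped between groups. Polr1a, the largest catalytic subunit, was at 115 ± 32.5 CPM in CD206neg and at 86.6 ± 24.0 CPM in CD206pos. Its partner subunit Polr1b was at 120 ± 14.2 and 83.2 ± 29.0 CPM, and litter 2 did not share the lower value of the other litters (log2 difference 0.04). Rrn3, which brings polymerase I to its promoter, was at 136 ± 25.8 and 112 ± 19.3 CPM, and the log2 differences were -0.01, -0.74 and -0.07.

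The 6 abundant nucleolar proteins were lower in CD206pos in every litter, and none was called by edgeR (DESeq2 called 1, limma-voom 0 and the litter block 3, and 2 had an unadjusted p under 0.05). Ncl, encoding nucleolin, was the most read member, at 2814, 2516 and 1866 CPM in CD206neg and 2254, 1560 and 1232 CPM in CD206pos. The groups overlapped, with litter 1 the highest in both, and with the litter block the adjusted p was 0.032 where it was 0.31 without. Npm1, encoding nucleophosmin, was at 856, 666 and 571 CPM and at 818, 460 and 328 CPM (log2 fold change -0.38 ± 0.31, adjusted p = 0.62). Its CD206pos library of litter 1 stood close to the CD206neg library of the same litter, with a log2 difference of -0.07 there against -0.535 and -0.80 in litters 2 and 3.

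Mybbp1a, a nucleolar MYB-binding protein, differed by similar amounts in the 3 litters (log2 differences -0.53, -0.48 and -0.45) and was at 638 ± 99.2 and 454 ± 60.3 CPM. Its adjusted p was 0.16, 0.034 with the litter block and 0.039 with DESeq2. Nolc1, a chaperone of snoRNPs, was at 439 ± 102 and 315 ± 69.9 CPM (adjusted p = 0.29, and 0.045 with the block). The helicase gene Ddx21, which acts on nascent rRNA, was at 233 ± 30.8 and 168 ± 27.6 CPM without overlap of the groups (adjusted p = 0.20). Gnl3, the nucleostemin gene of proliferating progenitors, had the smallest difference of these 6, at 284 ± 71.9 and 239 ± 86.4 CPM (adjusted p = 0.74).

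Both classes of snoRNP protein were lower in the fit in 3 of 3 genes, with medians of -0.64 (box C/D) and -0.66 (box H/ACA), and 1 of each class was called. Beside Nop56, the box C/D protein gene Nop58 was at 662, 522 and 475 CPM in CD206neg and 501, 283 and 283 CPM in CD206pos. The groups overlapped through litter 1 of CD206pos, and the adjusted p was 0.22, 0.030 with the litter block and 0.046 with limma-voom. Without CD206pos replicate 1 Nop58 was among the 3 members called. Fbl, encoding the methyltransferase fibrillarin, was at 21, 20.5 and 16 CPM and at 17.2, 11.3 and 9.60 CPM (adjusted p = 0.40).

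In the box H/ACA class Dkc1 was called while its small partners were not. Gar1 was at 31.0, 32.4 and 28.9 CPM in CD206neg and 26.3, 18.8 and 13.3 CPM in CD206pos, without overlap (log2 fold change -0.66 ± 0.29, adjusted p = 0.28). Nhp2 was at 388, 310 and 354 CPM and at 388, 253 and 231 CPM, and in litter 1 the values were level (log2 difference 0.001). Whether Dkc1 and Nhp2 differed in their change was not tested.

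Of the 11 small-subunit genes 2 fell, Rrp9 and Rrp12, and 9 did not pass, with 7 at an unadjusted p under 0.05 and a median of -0.54. Wdr43, a member of the early complex that binds nascent rRNA, was at 456, 394 and 379 CPM in CD206neg and 286, 272 and 294 CPM in CD206pos. Its groups stood well apart, with a log2 fold change of -0.53 ± 0.13 and an adjusted p of 0.056, which was 0.048 with the litter block, 0.0028 with DESeq2 and 0.037 with limma-voom. Nat10, the enzyme that acetylates cytidines of the small-subunit rRNA, was at 196, 146 and 94.8 CPM and at 110, 86.0 and 49.1 CPM. The spread of Nat10 over the CD206neg litters exceeded the difference of the group means, and its adjusted p was 0.24 without and 0.018 with the litter block. Nob1, the nuclease that makes the final cut of the small-subunit rRNA, was at 190 ± 54.2 and 121 ± 31.7 CPM (adjusted p = 0.23, and 0.049 with the block). Its groups did not overlap but nearly touched, with the lowest CD206neg library at 142.99 and the highest CD206pos library at 142.38 CPM.

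Nop14 and Bysl, both needed for small-subunit assembly, had groups that did not overlap, at 123 ± 26.6 against 84.4 ± 6.14 CPM and at 169 ± 22.7 against 122 ± 25.9 CPM (adjusted p = 0.18 and 0.25). For Nop14 the gap was narrow, with the lowest CD206neg library at 92.6 and the highest CD206pos library at 91.5 CPM. Utp20, a scaffold of the small-subunit processome, was at 73.5, 91.5 and 60.7 CPM and at 33.7, 76.8 and 25.9 CPM, where litter 2 of CD206pos overlapped CD206neg. Utp18, of the same particle, was at 106 ± 31.2 and 91.3 ± 38.8 CPM and was higher in CD206pos in litter 2 (log2 difference 0.21).

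The 2 members with a fitted value above 0 also belong to this role. Heatr1, another early processome protein, was at 101, 195 and 166 CPM in CD206neg and 155, 148 and 163 CPM in CD206pos, with the lowest value in CD206neg of litter 1 (log2 fold change 0.01 ± 0.23, adjusted p = 0.99). Ddx10, a helicase of the small-subunit pathway, was at 82.1, 77.0 and 62.1 CPM and at 89.6, 75 and 61 CPM (log2 fold change 0.03 ± 0.20, adjusted p = 0.97). With RLE scaling Heatr1 turned to -0.002, and with library totals Heatr1 and Ddx10 were at -0.08 and -0.06, so that neither has a settled direction. These were the values nearest to 0 among the 37.

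Of the 8 large-subunit genes all were lower in the fit (median -0.53) and none was called by edgeR, while DESeq2 called 3, limma-voom 2 and the litter block 2, and 4 had an unadjusted p under 0.05. Bop1, Pes1 and Wdr12 encode the PeBoW complex, which acts in the processing of large-subunit rRNA. Bop1 was at 329, 271 and 216 CPM in CD206neg and 187, 157 and 128 CPM in CD206pos, without overlap (log2 fold change -0.79 ± 0.20, adjusted p = 0.066, 0.012 with the block and 0.0025 with DESeq2). Its partners showed smaller fitted values, with Pes1 at 219 ± 43.1 and 183 ± 9.21 CPM (log2 fold change -0.26 ± 0.17) and Wdr12 at 215 ± 31.4 and 172 ± 38.5 CPM (-0.32 ± 0.20). Whether Bop1 differed from Pes1 and Wdr12 in its change was not tested.

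Rrp1b, a nucleolar factor of large-subunit processing, had the tightest groups of this role, at 170, 174 and 187 CPM and at 128, 114 and 116 CPM (log2 fold change -0.57 ± 0.14, adjusted p = 0.052, 0.0024 with DESeq2, 0.027 with limma-voom and 0.057 with the litter block). Nop2, an rRNA methyltransferase, was at 562, 442 and 310 CPM and at 305, 295 and 231 CPM, where the lowest CD206neg library was just above the highest CD206pos library (adjusted p = 0.16, and 0.039 with the block). Nop16 was at 301 ± 64.8 and 210 ± 21.7 CPM without overlap (adjusted p = 0.17). The helicase gene Ddx18 was at 69.1 ± 12.6 and 50.6 ± 20.8 CPM, and Noc2l at 56.8 ± 15.4 and 38.9 ± 21.5 CPM, both with overlapping groups (adjusted p = 0.51 and 0.55).

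Levels between genes were compared per kilobase of exon (RPKM on the same scaling). Nhp2, Npm1 and Ncl ranked highest in every library, in that order, with group means of 306, 262 and 235 RPKM in CD206neg and 254, 201 and 165 RPKM in CD206pos. At the low end were Fbl, Utp20 and Polr1a, at 4.55, 7.38 and 9.70 RPKM in CD206neg and 3.02, 4.46 and 7.30 RPKM in CD206pos. Such levels rest on reads that could be assigned to 1 gene. Of the 50-base stretches in a member's annotated transcripts, other genes' transcripts also hold 55.9% for Ddx18, 24.3% for Npm1, 23.3% for Pes1, 19.7% for Fbl, 19.2% for Noc2l and 18.6% for Nop56, so that the levels of these genes are uncertain. Noc2l shares 20.9% of its exon bases with Samd11, and Bysl shares 9.4% with Ccnd3, whose reads were not counted for either gene.

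In both populations litter 1 most often held the highest and litter 3 most often the lowest value of a member. Litter 1 had the highest of the 3 values for 29 of 37 members in CD206neg and for 27 in CD206pos, and litter 3 had the lowest for 29 and 28. Summed over the members, the level was 13184, 11205 and 9430 CPM in CD206neg and 9577, 7718 and 6342 CPM in CD206pos. The library of CD206pos litter 1 was thus above that of CD206neg litter 3, while within each litter CD206pos was lower. Medians of the members within litters were -0.465, -0.535 and -0.673 on the log2 scale. The labels name no other difference between the litters.

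The rest of the assembly pathway was read from 4 lists of other RNA polymerase I genes, small-subunit factors, large-subunit factors and snoRNP factors. Of 116 such genes tested 107 had a fitted value below 0 (92.2%, beside 50.3% of all genes tested), with a median of -0.38. Only 1 fell, the large-subunit factor gene Nle1, which is 0.86% of these genes beside 1.90% of all genes tested. Nle1 was at 81.5, 72.1 and 54.6 CPM in CD206neg and 38.2, 32.1 and 34.0 CPM in CD206pos (log2 fold change -0.997 ± 0.21, adjusted p = 0.034). This call was lost without any one library other than CD206neg replicate 3, and without any one litter (adjusted p between 0.055 and 0.34). At an unadjusted p under 0.05 there were 31 lower and 1 higher, where 8.05% of all genes tested were lower at that level. DESeq2 called 15 lower (4.34% of all genes), limma-voom 4 (2.06%) and the litter block 11 (2.11%). By list the medians were -0.36 for 43 small-subunit, -0.42 for 47 large-subunit, -0.43 for 10 snoRNP and -0.15 for 16 polymerase I genes. In the last of these lists 11 genes (68.8%) were below 0, the smallest share of the 4.

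**Figure D3:**
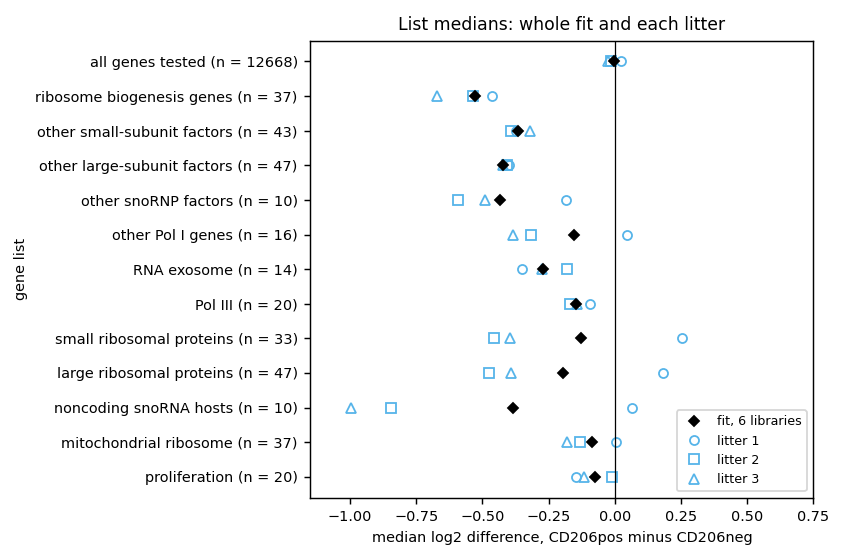
Median log2 difference (CD206pos minus CD206neg) of each gene list over the fit of 6 libraries (black diamonds) and within each litter (open markers). The ribosome biogenesis genes lie at -0.465 to -0.673 in the 3 litters, while both lists of ribosomal proteins lie above 0 in litter 1 and below 0 in litters 2 and 3.

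Ribosomal proteins, the building blocks on which these factors act, did not share the pattern of the members in all litters. Of 47 large-subunit and 33 small-subunit protein genes none was called by edgeR, DESeq2 or limma-voom, and none had an unadjusted edgeR p under 0.05. Their medians were -0.19 and -0.13 in the fit. Within litters they were 0.18 and 0.26 in litter 1, -0.48 and -0.46 in litter 2, and -0.39 for both in litter 3. Many of these genes have near-identical pseudogenes, and their counts are uncertain for that reason. The 10 tested noncoding snoRNA host genes, among them Gas5 and Snhg1, went a similar way, with medians of 0.07, -0.85 and -0.996 in litters 1, 2 and 3 and none called by edgeR (DESeq2 called 1 and limma-voom 0, and 1 had an unadjusted p under 0.05).

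Genes of the RNA exosome, which trims rRNA ends, had a median of -0.27 over 14 tested genes, and RNA polymerase III genes -0.15 over 20. Neither list had a gene called by edgeR, where DESeq2 called 1 and 0, limma-voom 0 and 0, and 3 and 2 had an unadjusted p under 0.05. The 37 genes of the mitochondrial ribosome, which is built by other factors, had a median of -0.09. None was called by edgeR, DESeq2 or limma-voom, and the 1 gene at an unadjusted p under 0.05 was higher in CD206pos.

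Among 20 regulators of growth and of this pathway 1 gene fell, Mycn, the MYC family member of embryonic progenitors. It was at 86.8, 42.1 and 26.3 CPM in CD206neg and at 1.34, 0.52 and 0.64 CPM in CD206pos (log2 fold change -5.95 ± 0.60, adjusted p = 0.0016), a call that limma-voom did not make (adjusted p = 0.051) and that leaving out litter 2 ended (adjusted p = 0.081). Myc was read far more, at 387, 445 and 228 CPM in CD206neg and 235, 320 and 226 CPM in CD206pos, and did not pass the test (log2 fold change -0.44 ± 0.25, adjusted p = 0.44).

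None of 20 proliferation genes was called by edgeR (DESeq2 called 0 and limma-voom 0). At an unadjusted p under 0.05 there were 4, all lower in CD206pos, and 5 (25.0%) had all CD206pos libraries below all CD206neg libraries, beside 11.8% of all genes tested. The opposite arrangement was shown by 1 gene, and 12 of the 20 had a fitted value below 0. The median of the 20 genes was -0.08, and their summed level, whose groups did not overlap, was 9697 to 10880 CPM in CD206neg and 9198 to 9619 CPM in CD206pos. Mki67, a marker of cycling cells, was at 283 ± 70.6 and 268 ± 33.6 CPM (log2 fold change -0.08 ± 0.20, adjusted p = 0.92).

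Markers of blood progenitors and granulocyte precursors were, like the members, lower in CD206pos. Of 10 blood progenitor genes 6 fell in CD206pos (4 called lower by limma-voom) and none rose, and their summed level was 830 to 1097 CPM in CD206neg and 123 to 183 CPM in CD206pos. Kit, the stem cell factor receptor, had 0 reads in all 3 CD206pos libraries. Of 10 granulocyte precursor genes 8 were tested and 7 fell (3 called lower by limma-voom), with summed levels of 1868 to 2878 CPM and 17.6 to 70.0 CPM. In the order of litters this sum was 1868, 2659 and 2878 CPM in CD206neg and 70.0, 49.6 and 17.6 CPM in CD206pos. The blood progenitor sum was 1097, 855 and 830 CPM in CD206neg and 175, 183 and 123 CPM in CD206pos. From litter 1 to litter 3 the granulocyte precursor sum rose in CD206neg and fell in CD206pos, and the blood progenitor sum fell in CD206neg. The sum of the members fell in both populations. Fcnb, S100a8, S100a9, Ctsg and Ms4a3 had 0 reads in CD206pos, and Mpo, a granule enzyme gene, was at 1917 ± 396 and 18.1 ± 13.2 CPM (adjusted p = 0.0020, and 0.081 without litter 2).

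The remaining marker lists were low or went the other way. Of 10 erythroid and megakaryocyte genes 6 were tested and 2 fell (43.3 to 66.2 CPM summed in CD206neg, 11.6 to 16.7 CPM in CD206pos, with Gata1 and Gfi1b among the genes at 0 in CD206pos). Of the 6 tested 4 had a fitted value below 0, and Epor and Hba-x had all CD206pos libraries above all CD206neg libraries (log2 fold change 3.49 ± 1.07 and 1.48 ± 1.35, adjusted p = 0.12 and 0.67), with 1 gene of the list called higher by DESeq2. Of 8 endothelial genes 2 fell (143 to 229 and 42.1 to 69.1 CPM, Sox17 at 0 in CD206pos), and of 8 mesenchymal genes 5 were tested and none was called (3.21 to 77.3 and 1.89 to 62.5 CPM, Twist1 at 0 in CD206pos; 0 at an unadjusted p under 0.05 and 0 by DESeq2 or limma-voom). Of 10 macrophage genes 7 rose in CD206pos, with summed levels of 4537 to 5646 CPM in CD206neg and 9867 to 13350 CPM in CD206pos. The part of progenitors and granulocyte precursors among the CD206neg cells in the lower level of ribosome biogenesis genes in CD206pos was not tested.

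**Figure D4:**
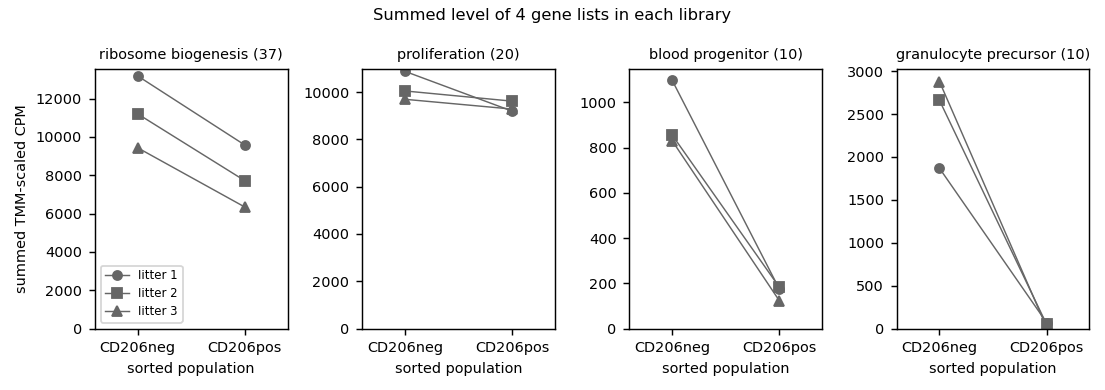
Summed TMM-scaled CPM of the 37 ribosome biogenesis genes, 20 proliferation genes, 10 blood progenitor markers and 10 granulocyte precursor markers in each library, with lines joining the 2 libraries of a litter and axes starting at 0. The members are lower in CD206pos within each litter, 13184 against 9577 CPM in litter 1, and both marker lists are far lower in CD206pos.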

How the data were processed

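The authors deposited 1 table of raw read counts per gene for each of the 6 libraries, made with featureCounts 1.5.2 on exons of GENCODE M14, per the file headers, with no option for strand, read pairs or multi-mapping reads. The submitters' processing notes name STAR 2.3 and the builds mm10 and GRCm38.p5. Symbols came from GENCODE M21 (51633 of 51912 identifiers matched). Groups and litters follow the labels. Libraries with the same AGM number were read as 1 litter, since the series design names 3 litters, and deviations from the group means correlated within litters at 0.09, 0.04 and 0.18. The CD206neg library of litter 2 correlated best with the CD206pos library of litter 1, and the other 5 with their own number. Xist had 394 reads in the CD206neg and 935 in the CD206pos library of litter 1, and 1931 and 1109 in those of litter 3. Neither library of litter 2 held a read of Xist.

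The test was edgeR's (version 4.0.16, under R 4.3.3, with filterByExpr, TMM, robust quasi-likelihood F test, Benjamini-Hochberg over 12668 genes, no litter block). Standard errors are the log2 fold change divided by the square root of F. Differences within litters are on log2 CPM with a prior count of 2. The alternatives were RLE, upper-quartile and total scaling, a looser and a stricter filter, DESeq2 1.42.0, and limma-voom 3.58.1 with sample quality weights. Further ones were no robust estimation, the litter block, removal of haemoglobin, mitochondrial and ribosomal protein genes, and leaving out each library or litter. The fit was tested on simulated data.

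The members, the lists and the rule for named genes (all members, up to 3 called genes per list and direction, Mrc1, Myc, Mki67, Kit and Mpo) were chosen with earlier results of these data known. Motifs were searched on both strands.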

Additional observations from a re-analysis of the deposited data

How the results depend on the processing

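The direction of the members held in all 19 alternatives, with 35 to 37 of 37 below 0 in each, and the number of calls did not. Against 4 members called (241 of 12668 genes tested were lower), edgeR called 7 with library totals (284 of 12668) and 7 with the stricter filter (257 of 9527). It called 13 with the replicate block for litter (267 of 12668), while DESeq2 called 11 (550) and limma-voom called 8 (261). Without single libraries or litters the count was 0 to 3, where fewer libraries also mean lower power. The 3 were called without CD206pos replicate 1, where 206 of 13540 genes tested were lower. In the leave-out fits 9 to 27 members had an unadjusted edgeR p under 0.05, and the share of all genes at that level was not taken. The median of the members was between -0.63 and -0.42 in these fits. Over all genes 617 calls became 1210 with DESeq2 and 3 to 561 in the leave-out fits, the lowest without litter 2. The pairing moved the count over all genes to 703. The median of all genes moved by under 0.1 under every scaling, to -0.09 at most, with library totals.

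Heatr1, Ddx10, Utp18 and Mki67, none of them called, changed sign. Leaving out a library or litter moved Heatr1 between -0.217 and 0.219, Ddx10 between -0.120 and 0.126, Utp18 between -0.520 and 0.066 and Mki67 between -0.269 and 0.046. Heatr1 was at -0.002 (RLE), -0.020 (upper quartile), -0.082 (totals), -0.002 (DESeq2), -0.060 (limma-voom), -0.017 (genes removed), -0.217 and -0.057 (without CD206neg replicate 1 and CD206pos replicate 3), and -0.216 and -0.004 (without litters 1 and 3). Ddx10 was at -0.058 (totals), -0.018 (limma-voom), -0.003 (genes removed), -0.082, -0.120 and -0.001 (without CD206neg replicate 3, CD206pos replicate 1 and CD206pos replicate 2), and -0.032 (without litter 1). Utp18 was at 0.020 and 0.066 (without CD206neg replicate 1 and CD206pos replicate 3), and Mki67 at 0.032, 0.034 and 0.046 (without CD206neg replicate 2, CD206neg replicate 3 and litter 3). The cause was not tested.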
